A study of Mus musculus with 6 samples.

Results

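The Nr4a family of orphan nuclear receptors was followed in RNA from the earliest thymic iNKT cells. Members were taken by symbol from the raw count matrix, which gave 3 genes (Nr4a1, Nr4a2 and Nr4a3) of 48397 in the table, and all 3 were among the 12312 genes that had enough reads to be tested. The cells came from mice of 2 genotypes with 3 libraries each. BALB/c mice were wild type, and SKG mice carried a hypomorphic allele of Zap70, the proximal kinase of the TCR, on the BALB/c background. All mice were 8 to 10 weeks old, and thymi of 3 mice were pooled for each library, from which about 1000 stage 0 iNKT cells were sorted. Stage 0 cells bind the PBS57–CD1d tetramer and were gated as CD24+ CD69+ CD44- CD8- with low or no CD4. The Zap70 allele is carried in every cell of the SKG mice, so the thymus in which the cells were selected differed between genotypes as well. The comparison asked whether these 3 genes, which report recent TCR signals in thymocytes, differed in level when Zap70 function was reduced.

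Nr4a proteins bind DNA as monomers or dimers and have no known need for a ligand, so that their activity is set largely by how much of them is made. They are immediate early genes: TCR ligation raises their transcription through calcium, calcineurin, MEF2 factors and CREB family factors without new protein synthesis. Nr4a1 (Nur77) takes part in the deletion of self-reactive thymocytes, and a fluorescent reporter at its locus is widely used to read TCR signal strength. Nr4a2 (Nurr1) is best known from dopaminergic neurons and is also induced in T cells, while Nr4a3 (Nor1) overlaps with Nr4a1 in thymocyte death and in regulatory T cell development.

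The sequence just upstream of each gene is shown because the start site regions of the 3 members share a feature that sets them apart from most promoters. RefSeq on GRCm38.p6 was searched on both strands, over the 250 bases before each start site, for TGACG, the core recognised by CREB family factors. Each of the 3 members held 4 such cores. At least 1 core was present in 17.8% of the 32851 promoters in the table, and 4 or more were present in 45 of them, which is 0.137%. Those 45 include the 3 members. The core holds a CG pair, and the shares were not taken over promoters of like base composition. G and C made up 74.4%, 80.0% and 61.2% of the stretches shown for Nr4a1, Nr4a2 and Nr4a3. In the lines that follow, the gene strand is written 5′ to 3′ and capitals mark TGACG or its reverse complement CGTCA.
Nr4a1, chr15:101266596-101266845, plus strand, 250 bases ending at the base before the RefSeq start: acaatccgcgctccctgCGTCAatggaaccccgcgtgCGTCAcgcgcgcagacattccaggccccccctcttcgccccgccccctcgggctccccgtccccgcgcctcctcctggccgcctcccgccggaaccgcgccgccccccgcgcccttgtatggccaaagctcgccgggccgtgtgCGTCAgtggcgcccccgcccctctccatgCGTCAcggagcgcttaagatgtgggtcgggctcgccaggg
Nr4a2, chr2:57124004-57124253, minus strand, 250 bases ending at the base before the start: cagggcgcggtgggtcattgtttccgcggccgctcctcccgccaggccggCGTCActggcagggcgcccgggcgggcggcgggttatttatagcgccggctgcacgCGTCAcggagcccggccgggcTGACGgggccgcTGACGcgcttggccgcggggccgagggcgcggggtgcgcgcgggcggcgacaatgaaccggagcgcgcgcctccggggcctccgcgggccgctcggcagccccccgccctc
Nr4a3, chr4:48045055-48045152, plus strand, 98 bases ending at the base before the GENCODE start: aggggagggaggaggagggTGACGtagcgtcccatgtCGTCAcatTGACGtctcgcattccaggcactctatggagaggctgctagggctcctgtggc

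In Nr4a1 all 4 cores lay on the strand opposite to the gene, at 233, 213, 69 and 40 bases upstream of the start. That window lies in an intron of a longer GENCODE transcript whose first exon is further upstream. In Nr4a2 the cores began 200, 144, 123 and 111 bases upstream, on both strands. In Nr4a3 GENCODE starts the first exon further upstream than RefSeq, so the stretch shown ends 153 bases before the RefSeq start and holds the cores at 231, 213 and 205 bases upstream of the RefSeq start, and the core at 147 bases falls within the GENCODE first exon. The full palindrome TGACGTCA, which holds the core on both strands, occurred in 1.55% of promoters and in none of the 3. The site bound by Nr4a monomers, AAAGGTCA, occurred in 1.34% of promoters and likewise in none of the 3. The NFAT core GGAAA occurred in 55.6% of promoters and, among the members, once in Nr4a2. The CArG box (1.47% of promoters) was found in none of the 3 windows. The MEF2 consensus, which lies in 2.92% of promoters, was found once in Nr4a2, 167 to 158 bases upstream of the start, and in neither of the other windows; a narrower form with a fixed base at each end (0.508% of promoters) was found in none. A match is a string of letters and not a measured binding site, and no occupancy was measured here.

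The members differed widely in level, and each varied widely among the libraries of a genotype. Levels were expressed as CPM (a gene's reads relative to all reads on genes, scaled by TMM) for comparisons of a gene between libraries, and per kilobase of exon (FPKM) for comparisons between genes. Nr4a1 (ENSMUSG00000023034.7, chr15:101254269-101274795, plus strand, 3509 bases of exon in GRCm38) was the most abundant member in every library. The BALB/c libraries held 17529, 9151 and 7065 Nr4a1 reads, or 425, 247 and 156 CPM. The SKG libraries held 6963, 12735 and 7282 Nr4a1 reads, or 173, 328 and 201 CPM. The 2 sets of libraries overlapped, with the highest and the lowest of the 6 values both in BALB/c. The mean level was 276 ± 137 CPM in BALB/c and 234 ± 82.4 CPM in SKG (SD, n = 3 libraries each). The difference was smaller than the spread between replicates: the log2 fold change (SKG over BALB/c) was -0.24 with SE 0.41 and a 95% interval of -1.22 to 0.75, at an adjusted p of 0.9907 (edgeR's quasi-likelihood test with Benjamini-Hochberg adjustment). The sign of this value rested on 1 library, being 0.22 without BALB/c replicate 1. In bulk RNA, fewer cells expressing a gene and less RNA of it per cell cannot be told apart, and this holds for each value given here.

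Nr4a2 (ENSMUSG00000026826.13, chr2:57106830-57124003, minus strand, 4059 bases of exon) was lower in each SKG library than in each BALB/c library. The BALB/c libraries held 7108, 4078 and 2451 Nr4a2 reads, or 172, 109.9 and 54.3 CPM. The SKG libraries held 975, 1842 and 93 reads, or 24.2, 47.4 and 2.57 CPM. The gap between the 2 sets was narrow, since the lowest BALB/c library was 1.15-fold above the highest SKG library, whereas SKG replicate 3 lay far below all others. The mean was 112 ± 59.1 CPM in BALB/c and 24.7 ± 22.4 CPM in SKG (SD, n = 3). The fitted level was 4.54-fold higher in BALB/c, a log2 fold change of -2.18 with SE 0.97 and a 95% interval of -4.50 to 0.14. It did not pass the test (edgeR unadjusted p = 0.06125, adjusted p = 0.9467). The unadjusted p lay close to the line and crossed it with the setting, ranging from 0.01661 to 0.1658 over 16 alternatives. It was under 0.05 in 9 of 16 alternatives, among them both DESeq2 fits, limma-voom and both block fits. Of the block fits, the one on library number compared only BALB/c replicates 1 and 2 with SKG replicates 2 and 3. A change as large as the log2 fold change of -2.18, in either direction, was seen in 757 genes, 6.15% of those tested. Leaving out SKG replicate 2 gave -3.05, leaving out SKG replicate 3 gave -1.63 and leaving out BALB/c replicate 1 gave -1.72. All BALB/c values of Nr4a2 stayed above all SKG values under each of the 4 scalings computed (TMM, RLE, upper quartile and library size alone).

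Nr4a3 (ENSMUSG00000028341.9, chr4:48045153-48086447, plus strand, 5987 bases of exon) was the least abundant member per length in 5 of the 6 libraries, and its mean lay in the opposite direction. The BALB/c libraries held 5, 128 and 245 Nr4a3 reads, or 0.121, 3.45 and 5.42 CPM. The SKG libraries held 172, 492 and 589 reads, or 4.27, 12.7 and 16.3 CPM. SKG replicates 2 and 3 were above all BALB/c libraries, while SKG replicate 1 lay below BALB/c replicate 3, so the sets overlapped. The mean was 3.00 ± 2.68 CPM in BALB/c and 11.1 ± 6.16 CPM in SKG (SD, n = 3). The log2 fold change was 1.88 with SE 1.36 and a 95% interval of -1.38 to 5.15 (edgeR adjusted p = 0.9885). BALB/c replicate 1, with 5 reads, set much of this value: without it the log2 fold change was 1.33, and without BALB/c replicate 3 it was 2.64. No annotated gene overlaps the body of any of the 3 members, so the counting, which ignored strand, did not mix them with antisense neighbours.

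**Figure D1:**
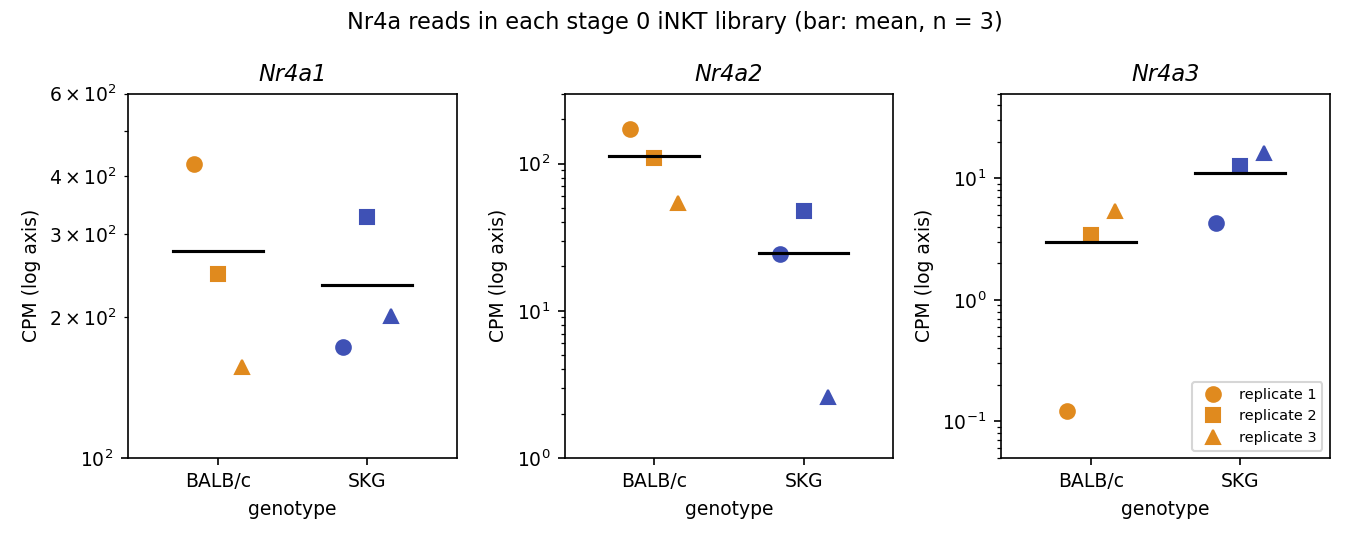
CPM of Nr4a1, Nr4a2 and Nr4a3 (log axes, with a different range in each panel) in the 3 BALB/c and 3 SKG libraries; symbols mark the replicate number and the black bar the mean. Nr4a2 is the only member whose libraries do not overlap, with 54.3 CPM in the lowest BALB/c and 47.4 CPM in the highest SKG library.

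None of the 3 members was called between genotypes at an FDR of 0.1 and a fold change of 1.5, the thresholds of the study, and edgeR called 0% of the 12312 genes. DESeq2 called 1.43% of the 25935 genes with any read, or 0.891% with shrunken fold changes, and in both cases none of the 3 members. At an unadjusted p under 0.05, which 5.45% of genes passed in edgeR, none of the 3 passed in that fit. In the alternative fits Nr4a2 passed that line in 9 of 16, Nr4a1 in 0 of 16 and Nr4a3 in 0 of 15. Libraries did not overlap between genotypes for 1 of 3 members, against 13.9% of all tested genes (7.12% lower in SKG and 6.77% higher). A single member of 3 is too few to set against those shares.

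The replicate spread that limits these tests was itself unequal. With 0.5 added to each count, Nr4a1 differed 2.72-fold between the highest and lowest BALB/c library, a spread reached by 2.39% of the 1589 genes within 2-fold of its mean level, whose median spread was 1.41-fold. In SKG the Nr4a1 spread was 1.90-fold, reached by 15.9% of 2022 such genes. Nr4a1 was thus among the more variable genes of its level in BALB/c and less so in SKG. Nr4a2 spread 3.18-fold in BALB/c, reached by 6% of 3432 genes of like level, and 18.3-fold in SKG, reached by 10.7% of 3166 genes. Nr4a3 spread 40.8-fold in BALB/c (44.7-fold without the added 0.5) and 3.81-fold in SKG, and 47.6% and 51.3% of genes of like level spread at least as much, so that its variation was ordinary for so low a level. The biological coefficient of variation fitted by edgeR was 36.5% for Nr4a1, 76.3% for Nr4a2 and 117% for Nr4a3.

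The make-up of the family within a library does not depend on how libraries are scaled to each other. For every 100 Nr4a1 reads, the BALB/c libraries held 40.5, 44.6 and 34.7 Nr4a2 reads and the SKG libraries 14.0, 14.5 and 1.28. On this measure the BALB/c libraries lay close together, SKG replicates 1 and 2 lay close together at a lower level, and SKG replicate 3 lay apart. The log2 ratio of Nr4a2 to Nr4a1 was -1.33 ± 0.18 in BALB/c and -3.97 ± 2.00 in SKG (SD, n = 3), a difference of -2.64 or 6.22-fold. The exact permutation test (two-sided) gave p = 0.1, the smallest value that 3 libraries against 3 allow, and 0.15 after Benjamini-Hochberg adjustment over the 3 pairs of members. Without SKG replicate 3 the difference was -1.48, and without SKG replicate 2 it was -3.23. The ratio of Nr4a3 to Nr4a2 was higher in each SKG library than in each BALB/c library, with log2 values of -10.34, -4.99 and -3.32 in BALB/c and -2.50, -1.90 and 2.66 in SKG (exact permutation p = 0.1, adjusted 0.15). The difference in that ratio was 5.63, and it was 3.57 without BALB/c replicate 1. The ratio of Nr4a3 to Nr4a1 overlapped between genotypes (difference 2.99, exact permutation p = 0.2, adjusted 0.2).

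Given as a share of the family's reads, Nr4a2 made up 28.8%, 30.5% and 25.1% in BALB/c (95% exact Clopper-Pearson intervals 28.3 to 29.4, 29.8 to 31.3 and 24.3 to 26.0). In SKG it made up 12.0%, 12.2% and 1.17% (intervals 11.3 to 12.7, 11.7 to 12.8 and 0.944 to 1.43). These intervals treat each read as an independent draw. Amplified reads without molecular identifiers are not independent molecules, so the intervals are too narrow even for counting error. The spread between libraries exceeded them in both genotypes. Per exon length, Nr4a1 took 73.8 ± 2.00% of the family in BALB/c and 89.9 ± 4.0% in SKG, Nr4a2 25.4 ± 2.51% and 7.53 ± 5.62%, and Nr4a3 0.713 ± 0.771% and 2.58 ± 1.68% (SD, n = 3). The order Nr4a1, Nr4a2, Nr4a3 held in 5 of 6 libraries. In SKG replicate 3 Nr4a3 stood at 2.72 FPKM and Nr4a2 at 0.634 FPKM. The summed CPM of the family was 391 ± 193 in BALB/c and 269.7 ± 103 in SKG, and those sets overlapped.

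**Figure D2:**
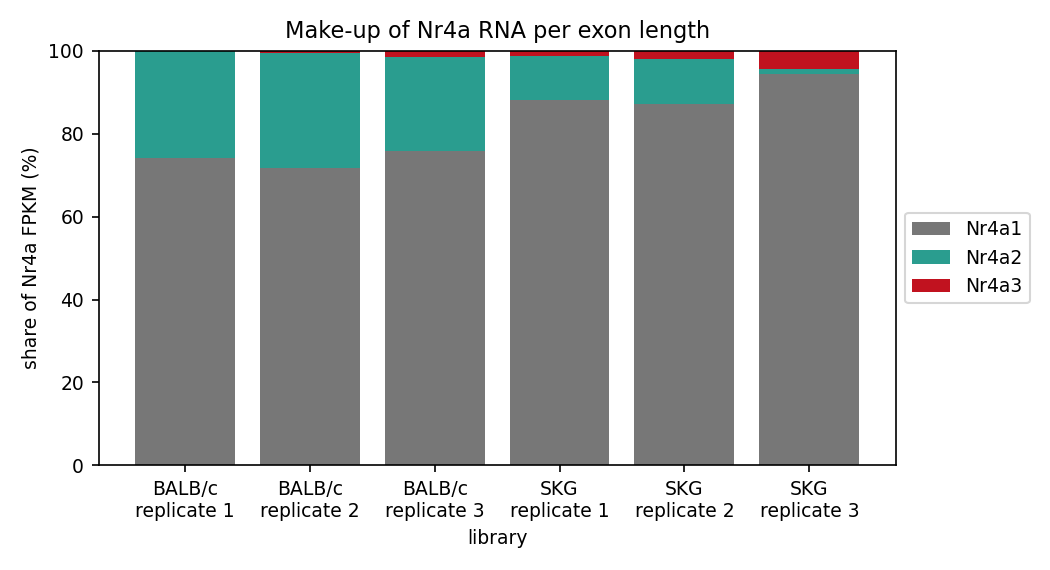
Share of each member in the summed Nr4a FPKM (percent, stacked bars) in each of the 6 libraries. Nr4a2 takes 22.7% to 27.6% of the bar in BALB/c and 1.04% to 10.9% in SKG.

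Among the 49 nuclear receptor genes listed, 19 were tested, 43 had at least 1 read, and 18 had at most 10 reads in every library. Nr4a1 had the highest mean level per length of all of them, 78.7 ± 38.9 FPKM in BALB/c and 66.7 ± 23.5 FPKM in SKG (SD, n = 3). It was first in 3 libraries and second to Nr1h2 (LXRβ, an oxysterol receptor) in the other 3. The mean FPKM over 6 libraries was 72.7 for Nr4a1 and 70.1 for Nr1h2, a difference well within the spread of Nr4a1. Nr3c1, the glucocorticoid receptor, followed at 32.4 FPKM, and its highest library (37.7) was below the lowest Nr4a1 library (44.6). Rxrb, a retinoid X receptor and potential dimer partner of Nr4a1 and Nr4a2, averaged 20.4 FPKM, and Nr4a2 averaged 16.9 FPKM. Nr4a2 ranked between 3 and 5 among the receptors in the BALB/c libraries and at 6, 6 and 13 in SKG. Nr4a3 ranked between 12 and 20.

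Of the 19 tested receptors 1 had an unadjusted p under 0.05, a share near the 5.45% of all tested genes. It was Rora, RORα, with 770, 310 and 206 reads in the BALB/c libraries against 11, 0 and 0 in the SKG libraries (edgeR adjusted p = 0.8301). Rora is one of the genes the study named as differentially expressed in its own DESeq2 fit of these libraries. Receptor libraries did not overlap for 2 of the 19 tested genes, Nr4a2 and Rora, both lower in SKG. That compares with 7.12% of all tested genes lower in SKG without overlap.

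**Figure D3:**
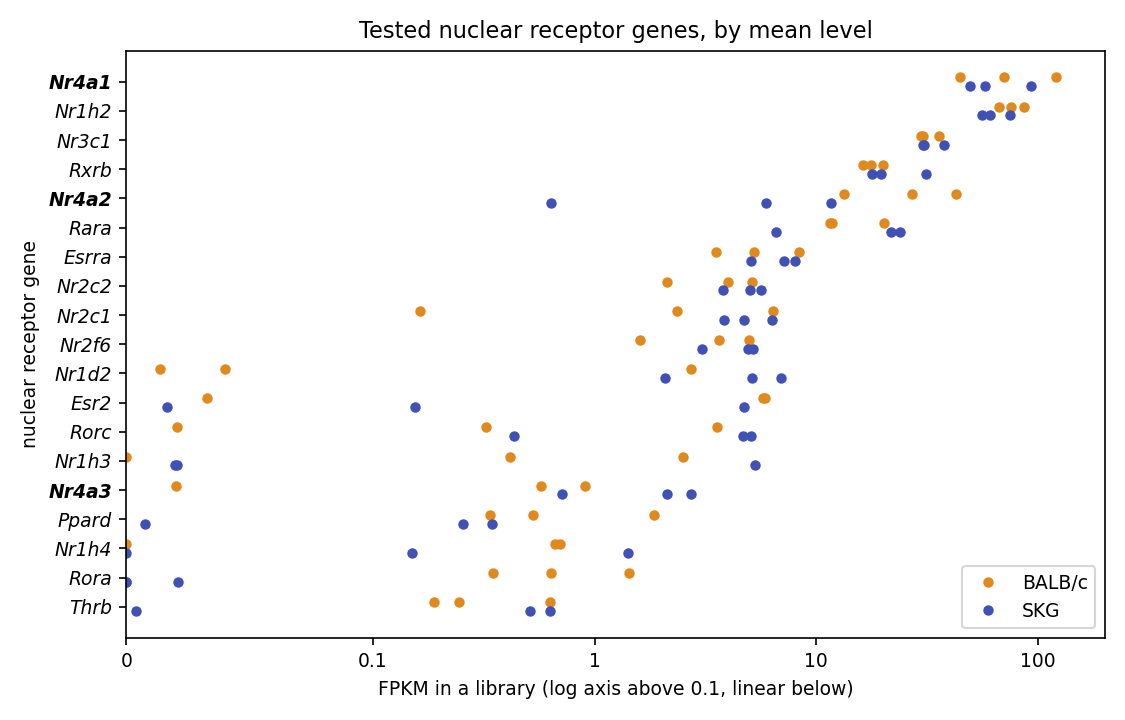
FPKM in each of the 6 libraries (horizontal axis, logarithmic above 0.1 and linear below) for the 19 tested nuclear receptor genes, ordered by mean level, with the Nr4a members in bold. Nr4a1 and Nr1h2 lead, and the Nr4a2 points run from 0.634 FPKM in an SKG library to 42.5 FPKM in a BALB/c library.

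Other early genes of TCR signalling were listed to set beside the Nr4a members. Of 29 such genes 25 were tested in edgeR. There 8 had an unadjusted p under 0.05 with a lower level in SKG (2.38% of all tested genes did). With a higher level 1 passed that line (3.07% of all did). None was called after adjustment in edgeR, a fit that called 0% of the 12312 genes. With each library left out in turn, 7 to 10 of these genes were lower and 0 to 1 higher at that p. The median over the tested early genes was a log2 fold change of -0.13, against -0.02 over all tested genes, and it moved between -0.33 (without BALB/c replicate 3) and -0.03 (without SKG replicate 1). The study had already named 3 of the list (Egr1, Egr2 and Myc) as differentially expressed in its own DESeq2 fit of these libraries. Their direction is therefore not independent evidence, and the edgeR adjusted p-values below are not those of the study. Myc, a regulator of growth, was at 393 ± 28.4 CPM in BALB/c and 146 ± 26.1 CPM in SKG (log2 fold change -1.43 ± 0.18 SE, edgeR adjusted p = 0.3283). The immediate early gene Ier2 was at 846 ± 206 and 294 ± 26.4 CPM (-1.53, edgeR adjusted p = 0.3799). The zinc finger factor Egr1 was at 1784 ± 208 and 942 ± 49.8 CPM (-0.92, edgeR adjusted p = 0.4471). These genes spread far less among replicates than Nr4a2 did, but they were more abundant and were named for their low p. Naming by low p favours a small spread, so the contrast does not extend to the other early genes. Tnfrsf9, the costimulatory receptor 4-1BB, was at 171 ± 33.8 and 65.0 ± 6.82 CPM (-1.39, edgeR adjusted p = 0.6168), and Egr2, needed for iNKT cell development, at 1351 ± 230.1 and 777 ± 249 CPM (-0.80, edgeR adjusted p = 0.8337). The 1 gene on the other side was the AP-1 subunit Jun, named after its value was seen, at 31.3 ± 14.4 CPM in BALB/c and 72.8 ± 30.0 CPM in SKG (1.22, edgeR adjusted p = 0.9115).

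Regulators that act on Nr4a transcription numbered 26, of which 25 were tested. In edgeR 3 had an unadjusted p under 0.05, all higher in SKG, and none was called after adjustment in that fit. In the same direction 3.07% of all genes passed, and the median log2 fold change of the regulators was 0.08. Without single libraries the count of regulators was 2 to 4. Nfatc1, a calcineurin-dependent factor, was at 1167 ± 11.5 CPM in BALB/c and 2110 ± 453 CPM in SKG (log2 fold change 0.85, edgeR adjusted p = 0.6168). Camk4, a calcium-dependent kinase upstream of CREB, was at 312 ± 50.0 and 526 ± 73.1 CPM (0.75, edgeR adjusted p = 0.6446). Nfatc3, another NFAT family member, was at 128 ± 36.8 and 224 ± 50.7 CPM (0.81, edgeR adjusted p = 0.8337). The factors best known for holding or driving the Nr4a1 promoter, Hdac7 and Mef2d, gave log2 fold changes of 0.49 (179 and 251 CPM) and 0.08 (214 and 226 CPM), with edgeR adjusted p-values of 0.9521 and 0.9907. Both were named outside the naming rule, after their values were seen. Messenger levels say nothing of the phosphorylation and nuclear transport by which these factors are controlled.

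Of 13 partners and coregulators of Nr4a proteins 11 were tested and none had an unadjusted p under 0.05 (5.45% of all tested genes did), with a median log2 fold change of 0.14. Bcl2, which Nr4a1 protein can bind at mitochondria, was at 634 ± 150.1 CPM in BALB/c and 382 ± 141 CPM in SKG (log2 fold change -0.73, edgeR adjusted p = 0.9467), and the corepressor Ncor1 at 289 ± 38.8 and 318 ± 37.7 CPM (0.14, edgeR adjusted p = 0.9907). Of 16 genes linked to Nr4a factors in T cells 12 were tested, with a median of -0.13, and 1 had an unadjusted p under 0.05 with a lower level in SKG (2.38% of all tested genes did). That gene was Cd200, an inhibitory ligand, at 105 ± 33.9 and 54.0 ± 7.63 CPM (-0.96, edgeR adjusted p = 0.8326). The most abundant of that list, the inhibitory receptor Pdcd1 and the factor Tox, gave log2 fold changes of 0.13 (1905 and 2088 CPM) and 0.19 (667 and 759 CPM), both with an edgeR adjusted p of 0.9907.

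**Figure D4:**
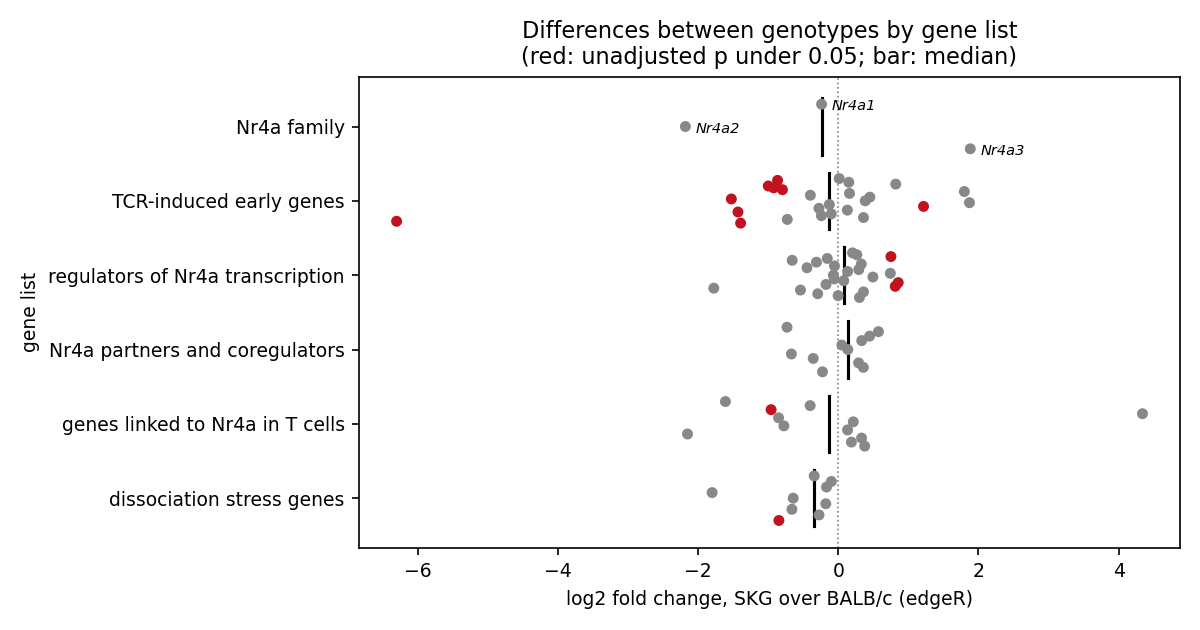
Log2 fold change (SKG over BALB/c, horizontal axis) of each tested gene in 6 gene lists (vertical axis); red points have an unadjusted p under 0.05 and black bars mark list medians. The Nr4a members lie at -2.18, -0.24 and 1.88, and 8 of the 9 red points among TCR-induced early genes lie below 0.

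Genes with a profile over the 6 libraries like that of a member were ranked by the root mean square difference of centred log2 CPM. The ranking was among 8378 genes with a mean of at least 10 CPM, except that Nr4a3, at a mean of 7.04 CPM, was included as a member. Nearest to Nr4a1 were Ddx27, Nkap and Phospho2, at 0.15, 0.15 and 0.17. Nearest to Nr4a2 were Gch1, the first enzyme of tetrahydrobiopterin synthesis, at 0.41, Tmem29 at 0.45 and Osbp, an oxysterol-binding protein, at 0.53. The Gch1 counts were 2872, 2106 and 1959 in BALB/c and 403, 844 and 74 in SKG, which follows Nr4a2 also in the low value of SKG replicate 3. Nearest to Nr4a3 were 2610008E11Rik, Acbd5 and Plcb4, at 0.44, 0.46 and 0.57, all low in BALB/c replicate 1. No member was among the genes nearest to another. In likeness to Nr4a1, Nr4a2 ranked 7450 and Nr4a3 7755. In likeness to Nr4a2, Nr4a1 ranked 1459 and Nr4a3 8111. In likeness to Nr4a3, Nr4a1 ranked 6744 and Nr4a2 8043. A pair has 1 distance but a different rank from each side. The distance depends on how far a gene varies as well as on the shape of its profile. A distant rank therefore does not by itself mean an unlike shape. With 6 libraries and 8378 genes, close profiles are a description of these libraries.

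The libraries held 37176544 to 43115544 reads on genes, and 10835 to 14791 genes had at least 10 reads. The lowest counts behind a member's value were 93 reads for Nr4a2 in SKG replicate 3 and 5 reads for Nr4a3 in BALB/c replicate 1. Summed markers of stage 0 iNKT cells overlapped between genotypes (9738 to 12126 CPM in BALB/c and 9631 to 11826 CPM in SKG). Of the 13, 3 had an unadjusted p under 0.05 in edgeR, 2 lower and 1 higher in SKG. Of all tested genes 5.45% passed that line, 2.38% lower and 3.07% higher. Cd69, a marker of the gate and itself induced by TCR signals, was at 353 ± 39.9 CPM in BALB/c and 193 ± 50.4 CPM in SKG (edgeR adjusted p = 0.6858), Egr2 was lower in SKG as given above, and Slamf6 was at 2628 ± 223 and 3325 ± 338 CPM (edgeR adjusted p = 0.8693). Cd24a, the other marker gated as present, was at 25.1 ± 24.0 and 70.4 ± 33.4 CPM, with overlap. The genes of the markers gated as absent or low overlapped as well. Cd44 was at 8.47 ± 5.37 and 1.89 ± 2.71 CPM, Cd8a at 59.8 ± 53.6 and 43.3 ± 19.9 CPM, and Cd4 at 19.3 ± 12.9 and 24.1 ± 8.33 CPM. Markers of mature iNKT cells summed to 222 to 337 CPM in BALB/c and 266 to 351 CPM in SKG, mostly Il2rb and Il17rb. Tbx21 was at 0 in every library, and Ccr6 was below 1 CPM in each. Ifng was found only in BALB/c replicate 1 (7.56 CPM). Klrd1 was found in that library (8.15 CPM) and in SKG replicate 3 (3.43 CPM). Klrb1c was at 2.32 and 3.87 CPM in BALB/c replicates 2 and 3 and at 0.695 CPM in SKG replicate 2. BALB/c replicate 1, the library with the most Nr4a1 and Nr4a2 and the least Nr4a3, also held the highest sums of double-positive thymocyte markers (467 CPM, against 72.5 to 244 in the others), B cell markers (94.9, against 4.59 to 45.0) and erythroid markers (69.7, against 0.0270 to 1.57). SKG replicate 3, with the least Nr4a2 and the most Nr4a3, held the highest sum of myeloid markers (140.1 CPM, of which Lyz2 gave 107), with Adgre1, Csf1r, Itgam and Tyrobp at 0 there. It also held the highest sum of epithelial markers (86.9 CPM, all but a trace from Epcam), with Krt5, Krt8, Foxn1 and Psmb11 at 0 there. The part of these cells in the Nr4a values was not tested. Dissociation stress genes, which like the Nr4a genes can be induced while tissue is handled, summed to 1410 to 1813 CPM in BALB/c and 1145 to 1416 CPM in SKG, highest in BALB/c replicate 1. Of 12 such genes 9 were tested, and their log2 fold changes were all below 0 with a median of -0.34, where 51% of all tested genes were below 0. The direction was not shared by all of the untested genes. Hspa1a averaged 0.10 CPM in BALB/c and 5.49 CPM in SKG, Socs3 5.90 and 0.24 CPM, and Atf3 had no reads. Among the tested genes only Zfp36, an mRNA decay factor, had an unadjusted p under 0.05, as did 2.38% of all tested genes in that direction (214 ± 15.9 and 119 ± 49.0 CPM, log2 fold change -0.85, edgeR adjusted p = 0.8337). The most abundant of them, Dnaja1 (368 and 344 CPM) and Btg2 (341 and 268 CPM), gave -0.10 and -0.34 at edgeR adjusted p-values of 0.9907 and 0.9774. Their part in the Nr4a values was not tested. Zap70 itself, in which the SKG allele is a change of sequence rather than of level, was at 448 ± 65.4 CPM in BALB/c and 356 ± 45.9 CPM in SKG (log2 fold change -0.33, edgeR adjusted p = 0.9526).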

How the data were processed

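RNA of sorted stage 0 iNKT cells was sequenced as 50-nt single-end reads. Per the labels and the methods of the study, reads were aligned to GRCm38 with HISAT2 (2.1.0) and counted by the authors with featureCounts (Subread 1.4.4) without regard to strand, and the deposited matrix holds raw read counts per gene. For library preparation the labels give SMART-Seq v4 and 18 preamplification cycles, and the methods the SEQR kit and 8; which was used could not be settled. Either amplification adds scatter between small samples. The second deposited table holds the authors' DESeq2 (1.14.1) fold changes and p-values, which were not used.

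Genes passing filterByExpr (12312) were fitted in edgeR (4.0.16, R 4.3.3) with TMM factors, a quasi-likelihood test and genotype as the term. DESeq2 (1.42.0), limma-voom (limma 3.58.1), other scalings and filters, replicate blocks and leaving out each library were alternatives. Log2 ratios of members used count + 0.5 and an exact permutation test. FPKM used GENCODE M21 exon unions, and 95.8% of the genes had a length. Replicates are pools of 3 mice, so p-values measure the spread between pools. The 3 members, the lists and the tests were chosen with earlier results of these data known. Genes were named by rule: the members, Zap70, the 3 genes nearest in profile to each member, the 5 highest nuclear receptors, and per list up to 4 genes with the lowest p under 0.05 and up to 2 of highest level.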

Additional observations from a re-analysis of the deposited data

How the results depend on the processing

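The direction of the Nr4a2 and Nr4a3 log2 fold changes held in every alternative, and no member passed the thresholds in any; the lowest adjusted p was 0.386 for Nr4a2 (DESeq2 without shrinkage), 0.5972 for Nr4a3 and 0.8183 for Nr4a1. With each library left out in turn, Nr4a1 ranged from -0.55 to 0.22, Nr4a2 from -3.05 to -1.63 and Nr4a3 from 1.33 to 2.64, and the Nr4a1 value of 0.22, without BALB/c replicate 1, was the only reversal. Other settings gave -0.33 to -0.16, -3.62 to -1.47 and 1.13 to 4.40, and Nr4a3 was not tested under a filter of 10 CPM in 3 libraries. The values -0.33, -3.62 and 4.40 came from the block on library number, in which not all libraries informed the genotype difference. The count of genes called was 0 in edgeR (671 at an unadjusted p under 0.05), in limma-voom (968) and without each library in turn, but 370 in DESeq2 (177 higher and 193 lower in SKG), 231 with shrunken fold changes (118 and 113), 2 without the filter on low counts and 1 under the filter of 10 CPM; the cause was not tested. The differences in log2 ratio left the ranges -3.23 to -1.48 (Nr4a2 to Nr4a1), 0.95 to 4.34 (Nr4a3 to Nr4a1) and 3.57 to 7.08 (Nr4a3 to Nr4a2) without single libraries. Leaving out a library moved the median of TCR-induced early genes within -0.33 to -0.03, of genes linked to Nr4a within -0.27 to 0.11 and of its regulators within 0.04 to 0.25.

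Replicate numbers are shared between genotypes, but samples with the same title number did not deviate together (correlations of -0.09, -0.01 and -0.15), nor did those with the same library number (-0.04 and 0.00), so they were not treated as pairs. With the title number as a replicate block Nr4a1, Nr4a2 and Nr4a3 gave -0.16, -2.80 and 2.72 (edgeR adjusted p of 0.9771, 0.9568 and 0.9568). With the library number as the block they gave -0.33, -3.62 and 4.40. Only library numbers 2 and 3 occurred in both genotypes. The values of that fit therefore rested on BALB/c replicates 1 and 2 and SKG replicates 2 and 3. Neither block changed a call, and 585 (title number) and 443 (library number) genes had an unadjusted p under 0.05 in edgeR. The 3 pools per genotype limit every comparison, and in edgeR with TMM factors, filterByExpr and no block the 95% interval of each member spanned 0.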
